A study of Mus musculus with 18 samples.

Results

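The enzymes that release arachidonic acid and turn it into leukotrienes and hydroxy fatty acids were followed in mouse basophils with and without tristetraprolin (TTP). The members were fixed by name as Pla2g4a, Alox5, Alox5ap, Lta4h, Ltc4s, Alox15, Alox12 and Alox12e. These 8 rows were taken from a table of 56413 genes, and all 8 were among the 14076 genes that passed the filter on low counts.

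Cytosolic phospholipase A2 frees arachidonic acid from membranes, and 5-lipoxygenase, presented with its substrate by the 5-lipoxygenase-activating protein, converts it to leukotriene A4. Leukotriene A4 hydrolase then makes the neutrophil attractant leukotriene B4, while leukotriene C4 synthase starts the cysteinyl leukotrienes that constrict airways. The 12- and 15-lipoxygenases oxidise arachidonic acid at other carbons to hydroxy fatty acids, and in activated basophils and mast cells the leukotriene branch is known for its release within minutes of IgE crosslinking.

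The study asked how loss of TTP, an RNA-binding protein that speeds the decay of messages with AU-rich elements, alters RNA in basophils that meet antigen through IgE. Bone marrow cells of TTP-KO or WT mice were grown for 7 days with 0.3 ng/mL IL-3, received IgE against the hapten TNP (1 µg/mL) on day 6, and were enriched for CD49b+ cells with magnetic beads. The cells then met 10 ng/mL of an ovalbumin (OVA) preparation. The 6 groups of 3 libraries were TTP-KO and WT cells with control OVA for 2 h, TTP-KO and WT cells with TNP-OVA, the antigen, for 2 h, and TTP-KO and WT cells with TNP-OVA for 4 h. All 18 libraries, controls included, came from cells that carried the anti-TNP IgE. The labels name no allele, strain, age or number of mice for TTP-KO or WT, and do not say whether replicates came from separate mice or cultures. The tests therefore weigh differences against the spread between libraries, which may be technical. Control OVA was given for 2 h only, so antigen and length of culture cannot be told apart in comparisons of 4 h with control.

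Libraries held between 5516580 and 12733200 estimated counts. The basophil proteases Mcpt8 and Prss34 were at 4987 to 7367 and 8678 to 13453 CPM (counts scaled to a common library total) across the 18 libraries. Zfp36, which encodes TTP, was at 219 to 228 CPM in TTP-KO and 224 to 247 CPM in WT control libraries, and at 553 to 572 CPM in TTP-KO and 439 to 459.9 CPM in WT libraries after 2 h of antigen. With no statement of which bases of Zfp36 were altered, this RNA level leaves the genotype labels unchecked. Summed markers of other cells differed by genotype: the neutrophil list was at 3041 to 3740.1 CPM in TTP-KO and 2107 to 2658 CPM in WT libraries, the monocyte and macrophage list at 8195 to 9642 and 6751 to 8178 CPM, and the B cell list at 23.9 to 34.4 and 55.3 to 70.6 CPM. Lyz2 made up most of the monocyte and macrophage sum, at 4861 to 7312 CPM over the 18 libraries. In such bulk samples, fewer cells of a type and less RNA per cell cannot be told apart.

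Per kilobase of exon the members spanned a wide range. Alox5ap was by far the highest, with group means of 1115 to 1352 CPM per kilobase, followed by Alox5 at 105.7 to 137 and Alox15 at 20.1 to 56.6. Alox12 had 5.86 to 14.3, Lta4h 5.64 to 8.17, Alox12e 2.19 to 10.2 and Pla2g4a 3.72 to 6.09 CPM per kilobase. Ltc4s had 2.6 to 3.59 CPM per kilobase and was the lowest in both control groups and in TTP-KO cells at 2 h, while Alox12e was below it in WT cells at 2 h and in both groups at 4 h. The step from arachidonic acid to leukotriene A4 was thus represented by abundant Alox5ap and Alox5 RNA. The release of arachidonic acid before it had far less RNA, of Pla2g4a, and Ltc4s, toward leukotriene C4, had few reads. Lengths are unions of exons in GENCODE M21, and the order assumes reads spread evenly along each transcript, which was not checked for these libraries primed at the poly(A) tail. Of the 8 members, 6 had whole-number counts in all 18 libraries. Alox5ap and Ltc4s did not, and each has an annotated antisense gene on the opposite strand (Gm19719, with 53 to 157 counts, and Gm26542, with 4.73 to 28.5 counts), and whether the counting used strand is not stated in the labels, so their values are less certain.

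Alox15, Alox12 and Alox12e all lie on the minus strand of chromosome 11, where mouse lipoxygenase genes are clustered, whereas Alox5 lies on chromosome 6. Windows from 250 bases before to 50 bases after the start were matched in RefSeq (GRCm38.p6) for 6 of the 8 members, and those of the 3 members with a start-proximal GC box are shown because these 3 behaved differently from one another: Alox12e fell steeply with antigen, Alox12 was lower in TTP-KO cells, and Alox5 differed by genotype at 4 h. Capitals mark the GC box GGGCGG, the motif bound by Sp1-type factors.
Alox12e, chr11:70322481-70322780, minus strand: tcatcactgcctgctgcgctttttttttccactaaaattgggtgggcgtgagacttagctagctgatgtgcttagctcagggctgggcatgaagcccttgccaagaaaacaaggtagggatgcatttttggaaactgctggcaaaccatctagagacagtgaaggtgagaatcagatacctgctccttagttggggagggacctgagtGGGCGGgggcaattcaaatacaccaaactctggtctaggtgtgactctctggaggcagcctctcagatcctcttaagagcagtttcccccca
Alox12, chr11:70255321-70255620, minus strand: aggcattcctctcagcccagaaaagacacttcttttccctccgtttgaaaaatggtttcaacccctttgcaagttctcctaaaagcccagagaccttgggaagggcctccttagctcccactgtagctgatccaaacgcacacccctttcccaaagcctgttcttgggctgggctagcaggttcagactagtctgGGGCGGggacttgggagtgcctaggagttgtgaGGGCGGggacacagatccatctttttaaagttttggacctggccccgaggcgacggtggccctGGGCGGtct
Alox5, chr6:116461129-116461428, minus strand: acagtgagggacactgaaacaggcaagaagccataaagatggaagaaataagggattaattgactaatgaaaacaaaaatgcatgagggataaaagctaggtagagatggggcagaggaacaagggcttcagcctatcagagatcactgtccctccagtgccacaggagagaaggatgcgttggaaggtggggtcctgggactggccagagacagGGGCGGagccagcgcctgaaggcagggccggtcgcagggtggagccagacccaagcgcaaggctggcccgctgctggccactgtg
Alox12 held 3 GC boxes, whose first bases were at positions -55, -22 and 42 from the start, Alox12e held 1 at -42 and Alox5 held 1 at -35. On both strands, 35.7% of 32851 such windows of all genes held GGGCGG. None of the 6 members' windows held AGATAA (the GATA motif, in 11.2% of all windows), TGANTCA (AP-1, in 7.81%) or TTCNNNGAA (STAT, in 8.3%). The window of Ltc4s held TGTGGT (RUNX, in 16.8% of all windows) on the opposite strand, and the shorter TTTCC, the core bound by NFAT, was present in those of Ltc4s, Lta4h, Alox12 and Alox12e and in 61.3% of all windows. The motifs did not overlap one another in these windows.

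Most members called against control OVA were lower. Calls are those of edgeR's quasi-likelihood test at an adjusted p under 0.05. In TTP-KO cells after 2 h, 0 of 8 members rose and 3 fell against control OVA, where 17.8% of all genes tested rose and 16.6% fell (34.5% in all). In WT cells after 2 h, 1 rose and 4 fell, where 17.8% of all genes rose and 17.3% fell (35.1% in all). In TTP-KO cells after 4 h, 1 rose and 4 fell, where 18.3% of all genes rose and 16.7% fell (35.0% in all). In WT cells after 4 h, 2 rose and 4 fell, where 19.6% of all genes rose and 18.4% fell (38.0% in all). In each of these comparisons more of the called members fell than rose, while all genes were split about evenly. The 3 of 8 called in TTP-KO cells at 2 h was near the share of all genes. Library values did not overlap control at 2 h for 4 of 8 members in TTP-KO cells (45.3% of all genes) and for 6 in WT cells (43.4%), and at 4 h for 6 in TTP-KO cells (47.5%) and 5 in WT cells (49.1%). The median log2 fold change of the 8 members was -0.10 in TTP-KO and -0.04 in WT cells at 2 h, and -0.28 in TTP-KO and -0.18 in WT cells at 4 h, while that of all genes was between -0.05 and 0.01. The WT median at 2 h was thus no lower than that of all genes (-0.05). At 4 h, antigen and length of culture cannot be told apart. The comparisons of 2 h and 4 h with control share the same control libraries within each genotype, and Alox15 and Alox12e fell in all of them.

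**Figure D1:**
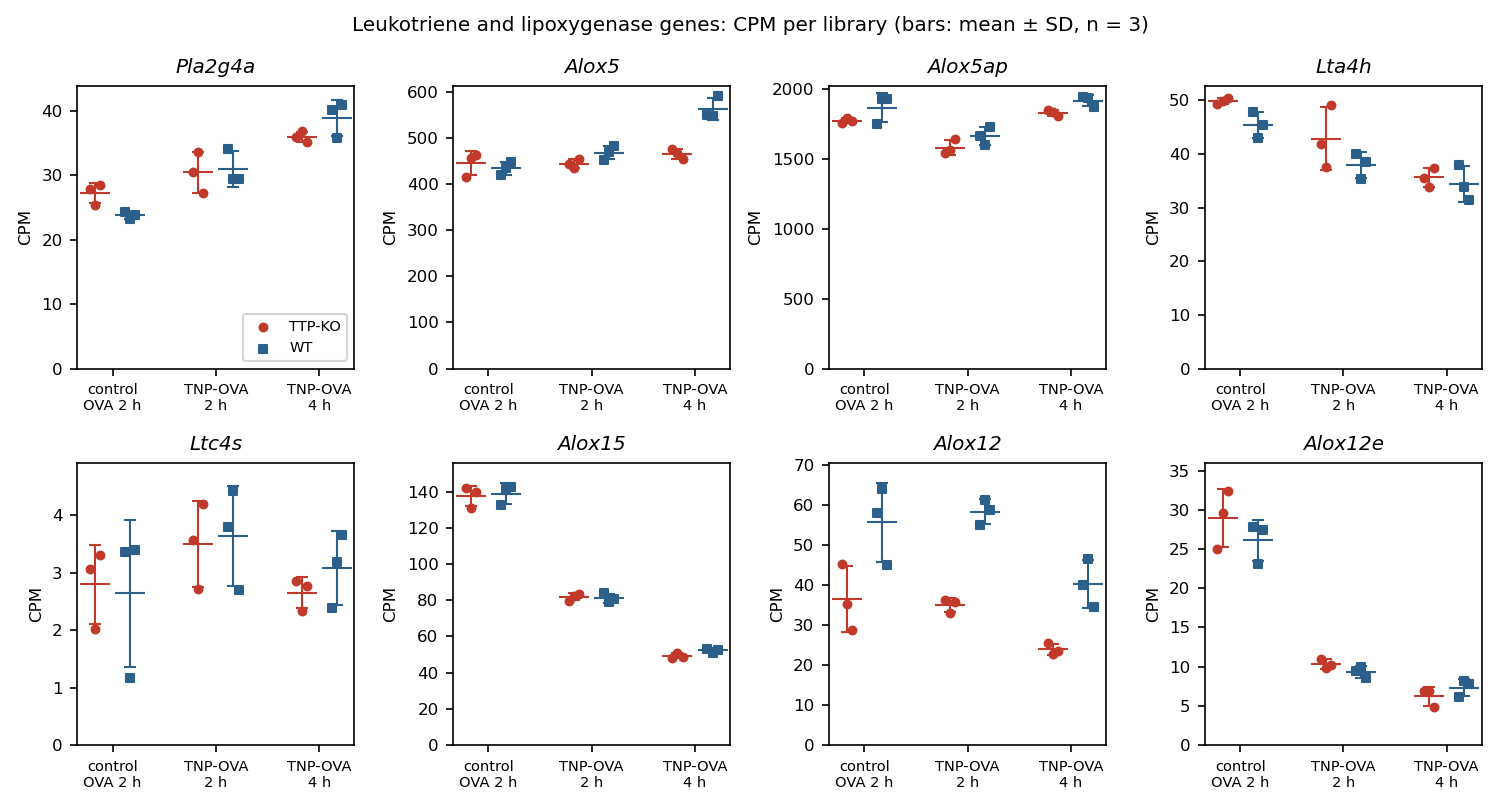
CPM of the 8 members in each library (TTP-KO circles, WT squares), with the mean and SD of 3 libraries, by condition along the horizontal axis. Alox15 and Alox12e step down from control OVA to 2 h and 4 h of antigen in both genotypes, Alox12 is lower in TTP-KO than in WT, and the 3 WT libraries at 4 h stand alone at 548 to 591 CPM of Alox5.

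Pla2g4a, the cytosolic phospholipase A2 that releases arachidonic acid on a calcium signal, rose with antigen. In TTP-KO libraries it had 27.9, 25.4 and 28.4 CPM with control OVA, 30.5, 33.7 and 27.2 CPM at 2 h and 35.9, 36.9 and 35.2 CPM at 4 h. In WT libraries it had 24.3, 23.3 and 23.9 CPM with control OVA, 34.2, 29.4 and 29.4 CPM at 2 h and 40.1, 35.8 and 40.9 CPM at 4 h. All 4 h libraries lay above the control libraries of their genotype, and at 2 h the WT libraries did so too, while 1 TTP-KO library stayed within the control range. The log2 fold change at 4 h was 0.40 ± 0.09 (SE) in TTP-KO cells (adjusted p = 0.000909, edgeR) and 0.71 ± 0.09 in WT cells (adjusted p = 3.64e-07). At 2 h it was 0.16 ± 0.10 in TTP-KO cells (adjusted p = 0.198) and 0.38 ± 0.10 in WT cells (adjusted p = 0.00291, edgeR). The larger WT response was not called as a difference between genotypes: the TTP-KO minus WT difference of the 4 h response was -0.31, with a 95% interval of -0.57 to -0.04 (adjusted p = 0.382, edgeR).

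Alox5, the 5-lipoxygenase itself, rose at 4 h in WT cells. TTP-KO libraries had 414, 456 and 463 CPM with control OVA, 444, 435 and 454 CPM at 2 h and 476, 466 and 454 CPM at 4 h. WT libraries had 420.2, 434 and 448 CPM with control OVA, 452, 469.6 and 482 CPM at 2 h and 549, 548 and 591 CPM at 4 h. The WT 4 h libraries did not overlap any other group, and the other 5 groups formed an order from 468 CPM (WT, 2 h) to 434 CPM (WT, control) in which each group overlapped the next. The ends of that order were apart, with all WT 2 h libraries above all WT control libraries. At 4 h the log2 fold change over control was 0.07 ± 0.04 in TTP-KO cells (adjusted p = 0.279, edgeR) and 0.37 ± 0.04 in WT cells (adjusted p = 7.92e-08). At 2 h the change was 0.00 ± 0.04 in TTP-KO and 0.11 ± 0.04 in WT cells (adjusted p = 0.984 and 0.0616, edgeR), and the WT value was called in 7 of 25 alternative settings, the fit with the replicate block among them (adjusted p = 0.0456).

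Alox5ap, the partner protein of 5-lipoxygenase, dipped at 2 h and returned. TTP-KO libraries had 1757, 1793 and 1777 CPM with control OVA, 1543, 1563 and 1643 CPM at 2 h and 1855, 1838 and 1811 CPM at 4 h. WT libraries had 1754, 1930.2 and 1928 CPM with control OVA, 1666, 1601 and 1734 CPM at 2 h and 1947, 1938 and 1874 CPM at 4 h. In both genotypes the 2 h libraries were the lowest, with no overlap with the other conditions. The 2 h log2 fold change over control was -0.17 ± 0.04 in TTP-KO cells (adjusted p = 0.000902, edgeR) and -0.17 ± 0.04 in WT cells (adjusted p = 0.000834). From 2 h to 4 h it rose by 0.21 ± 0.04 in TTP-KO cells (adjusted p = 6.78e-05, edgeR) and 0.20 ± 0.04 in WT cells (adjusted p = 0.000116), and at 4 h it was 0.05 ± 0.04 and 0.04 ± 0.04 from control (adjusted p = 0.364 and 0.477, edgeR).

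Lta4h, the hydrolase that makes leukotriene B4, fell by 4 h. TTP-KO libraries had 49.4, 49.9 and 50.4 CPM with control OVA, 41.9, 37.6 and 49.2 CPM at 2 h and 35.5, 33.9 and 37.5 CPM at 4 h. WT libraries had 47.8, 43.0 and 45.5 CPM with control OVA, 40.1, 35.3 and 38.4 CPM at 2 h and 38.0, 33.8 and 31.4 CPM at 4 h. The antigen libraries lay below the control libraries of their genotype at both times. The 4 h log2 fold change was -0.48 ± 0.09 in TTP-KO cells (adjusted p = 9.06e-05, edgeR) and -0.40 ± 0.09 in WT cells (adjusted p = 0.000687). At 2 h it was -0.22 ± 0.09 in TTP-KO cells (adjusted p = 0.0625, edgeR; called in 4 of 25 alternative settings, at 0.0494 with the replicate block) and -0.27 ± 0.09 in WT cells (adjusted p = 0.0272; not called in 6 of them, up to 0.126 without 1 library).

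Ltc4s, the synthase of leukotriene C4, was near the limit of what these libraries could measure. Its values were 2.02 to 3.30 CPM in TTP-KO and 1.16 to 3.40 CPM in WT control libraries, 2.72 to 4.2 CPM in TTP-KO and 2.7 to 4.42 CPM in WT libraries at 2 h, and 2.34 to 2.85 CPM in TTP-KO and 2.39 to 3.66 CPM in WT libraries at 4 h. All groups overlapped. These are 7.37 to 41.1 estimated counts a library, and no comparison was called. The 95% interval of the 2 h log2 fold change ran from -0.37 to 1.00 in TTP-KO and from -0.27 to 1.10 in WT cells, so these libraries bound the change only loosely.

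Alox15, which in mouse makes mostly 12-hydroxy fatty acids despite its name, fell at both times in both genotypes. TTP-KO libraries had 142, 131 and 139.6 CPM with control OVA, 79.7, 82.6 and 83.4 CPM at 2 h and 48.1, 50.7 and 48.8 CPM at 4 h. WT libraries had 132, 142 and 143 CPM with control OVA, 83.8, 78.9 and 80.5 CPM at 2 h and 53.2, 51.0 and 52.7 CPM at 4 h. The 3 conditions did not overlap within either genotype, and at every step TTP-KO and WT libraries lay close together. At 2 h the log2 fold change was -0.75 ± 0.06 in TTP-KO cells (adjusted p = 5.71e-12, edgeR) and -0.78 ± 0.06 in WT cells (adjusted p = 2.49e-12). At 4 h it was -1.48 ± 0.06 in TTP-KO cells (adjusted p = 6.48e-18, edgeR) and -1.41 ± 0.06 in WT cells (adjusted p = 9.83e-18).

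Alox12e, the epidermal-type 12-lipoxygenase of mouse, had the largest fold changes of the 8. TTP-KO libraries had 25.0, 29.6 and 32.3 CPM with control OVA, 11.0, 9.78 and 10.3 CPM at 2 h and 6.90, 6.88 and 4.83 CPM at 4 h. WT libraries had 27.8, 23.1 and 27.5 CPM with control OVA, 9.40, 9.95 and 8.49 CPM at 2 h and 6.10, 8.17 and 7.73 CPM at 4 h. Every antigen library lay below every control library, and in TTP-KO and in WT cells the 4 h libraries lay below those at 2 h. At 2 h the log2 fold change was -1.49 ± 0.14 in TTP-KO cells (adjusted p = 1.40e-09, edgeR) and -1.50 ± 0.15 in WT cells (adjusted p = 2.09e-09). At 4 h it was -2.23 ± 0.15 in TTP-KO cells (adjusted p = 7.82e-13, edgeR) and -1.84 ± 0.14 in WT cells (adjusted p = 1.96e-11). The step from 2 h to 4 h was called in TTP-KO cells (-0.74 ± 0.17, adjusted p = 0.0011, edgeR), was -0.34 ± 0.16 in WT cells (adjusted p = 0.120), and did not differ between genotypes beyond its error (-0.40, 95% interval -0.88 to 0.08, adjusted p = 0.647).

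Alox12, the platelet-type 12-lipoxygenase, was not called at 2 h and fell by 4 h. TTP-KO libraries had 45.3, 35.2 and 28.8 CPM with control OVA, 36.3, 33.0 and 35.8 CPM at 2 h and 25.5, 22.7 and 23.6 CPM at 4 h. WT libraries had 58.0, 64.1 and 44.9 CPM with control OVA, 55.1, 61.2 and 58.8 CPM at 2 h and 40.1, 46.4 and 34.5 CPM at 4 h. At 4 h the TTP-KO libraries lay below all TTP-KO control libraries, while 1 WT library at 4 h overlapped WT controls. At 2 h the log2 fold change was -0.04 in TTP-KO cells (95% interval -0.37 to 0.29, adjusted p = 0.872, edgeR) and 0.08 in WT cells (-0.22 to 0.39, adjusted p = 0.725). The 4 h log2 fold change was -0.59 ± 0.16 in TTP-KO cells (adjusted p = 0.00687, edgeR) and -0.45 ± 0.14 in WT cells (adjusted p = 0.0199). The WT call was lost without WT control replicate 1 or 2 or without WT 4 h replicate 1 or 3 (adjusted p = 0.0578 to 0.0920, edgeR). It was also lost in the fit on the compared groups alone (adjusted p = 0.0511, edgeR).

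**Figure D2:**
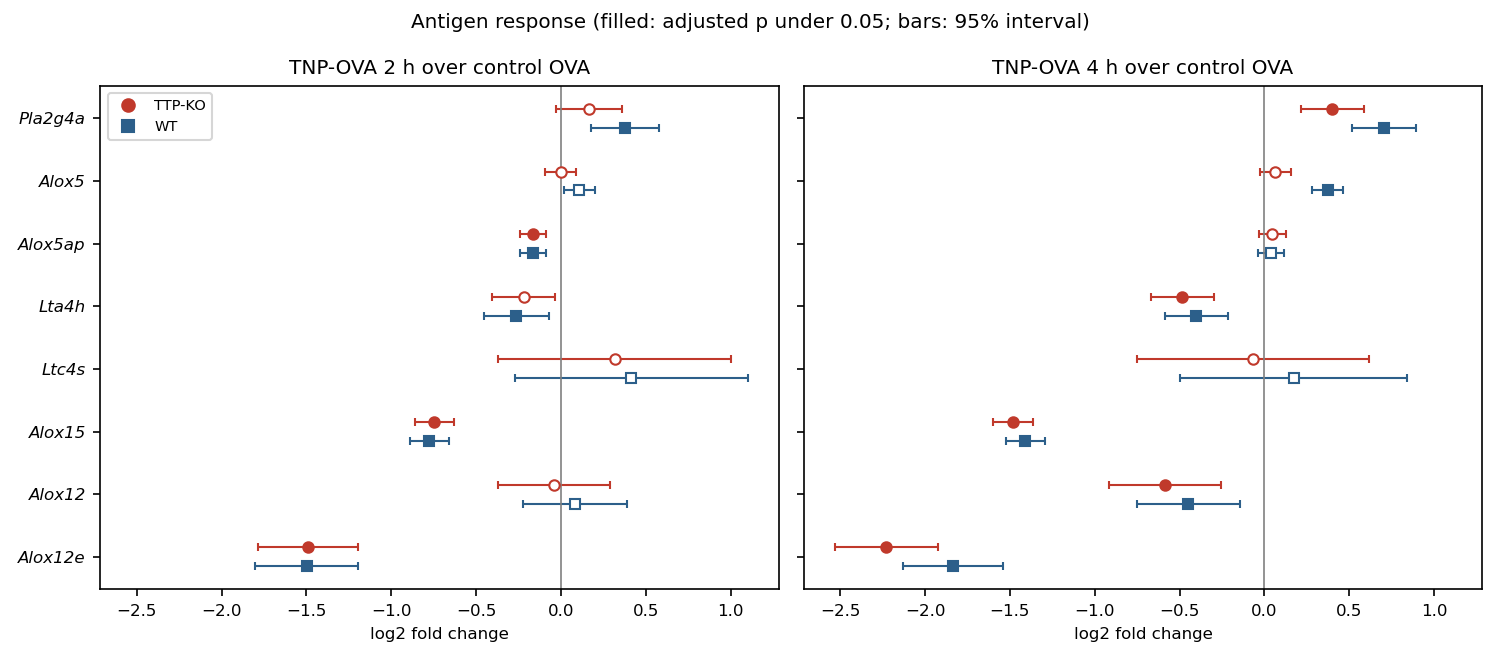
Log2 fold change of each member after 2 h (left) and 4 h (right) of TNP-OVA over control OVA, with 95% intervals, in TTP-KO (circles) and WT (squares); filled symbols have an adjusted p under 0.05. Alox12e and Alox15 lie far below 0 in both genotypes at both times, and Alox5 at 4 h is at 0.07 in TTP-KO and 0.37 in WT. Pla2g4a lies above 0, except that its 2 h interval in TTP-KO crosses 0 (-0.03 to 0.36).

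Between 2 h and 4 h of antigen, 1 member rose and 4 fell in TTP-KO cells, where 14.6% of all genes rose and 16.2% fell (30.8% in all). In WT cells 3 rose and 2 fell, where 15.2% of all genes rose and 15.9% fell (31.1% in all). Libraries of the times did not overlap for 6 of 8 members in TTP-KO cells (43.3% of all genes) and 6 in WT cells (44.2%). Alox5ap rose and Alox15 and Alox12 fell in both. Alox12e and Lta4h fell in TTP-KO cells, and Alox5 and Pla2g4a rose in WT cells (0.27 ± 0.04, adjusted p = 2.96e-05, and 0.33 ± 0.09, adjusted p = 0.00586, edgeR). Pla2g4a in TTP-KO cells had 0.24 ± 0.09 with no overlap of the libraries (adjusted p = 0.0520, edgeR), and was called in 6 of 25 alternative settings (0.0269 to 0.0489). The Lta4h change of -0.26 ± 0.09 in TTP-KO cells (adjusted p = 0.0320, edgeR) was lost in 6 of 25 alternative settings, reaching 0.224 without 1 library. The count for TTP-KO cells was 3 to 6 members when single libraries were left out. Without TTP-KO 2 h replicate 1 or TTP-KO 4 h replicate 2 or 3 the Alox12 call was lost (adjusted p = 0.0521 to 0.0582), and without WT 2 h replicate 3 the WT call of Pla2g4a was lost (adjusted p = 0.0534, edgeR).

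Genotype changed fewer members. With control OVA, 0 of 8 were higher and 1 was lower in TTP-KO than in WT cells, where 0.412% of all genes were higher and 1.24% lower (1.65% in all). After 2 h, 0 were higher and 1 was lower, where 0.909% of all genes were higher and 1.88% lower (2.79% in all). After 4 h, 0 were higher and 2 were lower, where 1.83% of all genes were higher and 3.40% lower (5.22% in all). The member called each time was Alox12, and at 4 h Alox5 joined it. Library values did not overlap between genotypes for 2, 1 and 4 of the 8 members in these 3 comparisons, against 17.5%, 18.5% and 25.1% of all genes. The other members were not called in these 3 comparisons, and the intervals that bound their differences varied in width. For Alox15 the 95% interval was -0.12 to 0.09 with control OVA, -0.10 to 0.13 at 2 h and -0.21 to 0.03 at 4 h on the log2 scale, and for Alox5ap it was -0.15 to 0.00, -0.15 to 0.00 and -0.14 to 0.01. Over the 3 comparisons the intervals reached -0.13 and 0.37 for Lta4h, -0.29 and 0.39 for Pla2g4a, -0.58 and 0.50 for Alox12e and -0.87 and 0.73 for Ltc4s.

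Alox12 was the member with the largest genotype difference. It averaged 36.4 ± 8.28 CPM in TTP-KO and 55.7 ± 9.81 CPM in WT control libraries (SD, n = 3 each), 35.0 ± 1.79 and 58.4 ± 3.09 CPM at 2 h, and 23.9 ± 1.40 and 40.3 ± 5.98 CPM at 4 h. TTP-KO and WT libraries were apart at 2 h and 4 h, and with control OVA 1 TTP-KO library (45.3 CPM) reached just above the lowest WT library (44.9 CPM). The log2 fold change of TTP-KO over WT was -0.62 ± 0.15 with control OVA (adjusted p = 0.0443, edgeR), -0.74 ± 0.15 at 2 h (0.0118) and -0.75 ± 0.15 at 4 h (0.00543). The control call was fragile: it was lost in 16 of 25 alternative settings, 14 of them the omission of a single library (adjusted p = 0.0591 to 0.152), including TTP-KO replicates 2 and 3 and WT replicates 1 and 2 of the control groups. The 2 h call was lost without replicate 2 of either genotype at 2 h (adjusted p = 0.0524 and 0.0539, edgeR), and the 4 h call held in all 25 settings. The 2 h and 4 h responses did not differ by genotype beyond their error, with TTP-KO minus WT differences of -0.12 (95% interval -0.57 to 0.33) and -0.14 (-0.59 to 0.31).

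Platelet genes are given beside Alox12. CD49b, used to enrich the cells, is carried by basophils and also by platelets and their precursors. All 12 genes of a megakaryocyte and platelet list passed the filter and none was at 0 in any library. Their summed level was 1654 to 2218 CPM in TTP-KO and 2008 to 2344 CPM in WT control libraries, 1836 to 1995 CPM in TTP-KO and 1945 to 2222 CPM in WT libraries at 2 h, and 1620.0 to 1802 CPM in TTP-KO and 1795 to 1916 CPM in WT libraries at 4 h. In each of the 3 conditions 0 of the 12 were higher and 1, Clec1b, was lower in TTP-KO cells, with list medians of -0.23, -0.23 and -0.26 on the log2 scale. Of all genes, 0.412%, 0.909% and 1.83% were higher and 1.24%, 1.88% and 3.40% lower in these conditions. DESeq2 called 1, 2 and 4 of the 12 lower in the 3 conditions and 0 higher, and at an unadjusted p under 0.05 edgeR gave 3, 6 and 6 lower and 0 higher. Clec1b, a receptor of platelets, averaged 45.5 ± 9.22 CPM in TTP-KO and 65.6 ± 5.75 CPM in WT control libraries, 44.3 ± 3.57 and 64.6 ± 5.84 CPM at 2 h, and 30.3 ± 1.95 and 47.4 ± 3.80 CPM at 4 h. Its log2 fold changes of TTP-KO over WT were -0.53 ± 0.11, -0.54 ± 0.12 and -0.65 ± 0.12 (adjusted p = 0.0122, 0.00945 and 0.000887, edgeR). The body of Clec1b overlaps that of Clec9a on the same strand. Clec1b was picked as the gene closest to Alox12 by Pearson's r among 9757 genes in these same libraries. Its likeness to Alox12 follows from that choice. The control call of Clec1b was lost in the fit on the groups compared alone (adjusted p = 0.185), and without WT control replicate 1 or 2 or TTP-KO control replicate 3 (adjusted p = 0.0572 to 0.0715), and the 2 h call without WT replicate 2 or TTP-KO replicate 3 at 2 h (0.0614 and 0.0540). At 4 h of antigen over control, 10 of the 12 fell in TTP-KO and 7 of 12 in WT cells, at the time Alox12 fell. Of all genes, 16.7% fell in TTP-KO and 18.4% in WT cells. DESeq2 called 9 of the 12 lower in either genotype. At an unadjusted p under 0.05 edgeR gave 10 lower in either, so the counts of 10 and 7 depend on the threshold. The part of these platelet genes in the Alox12 results was not tested.

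**Figure D3:**
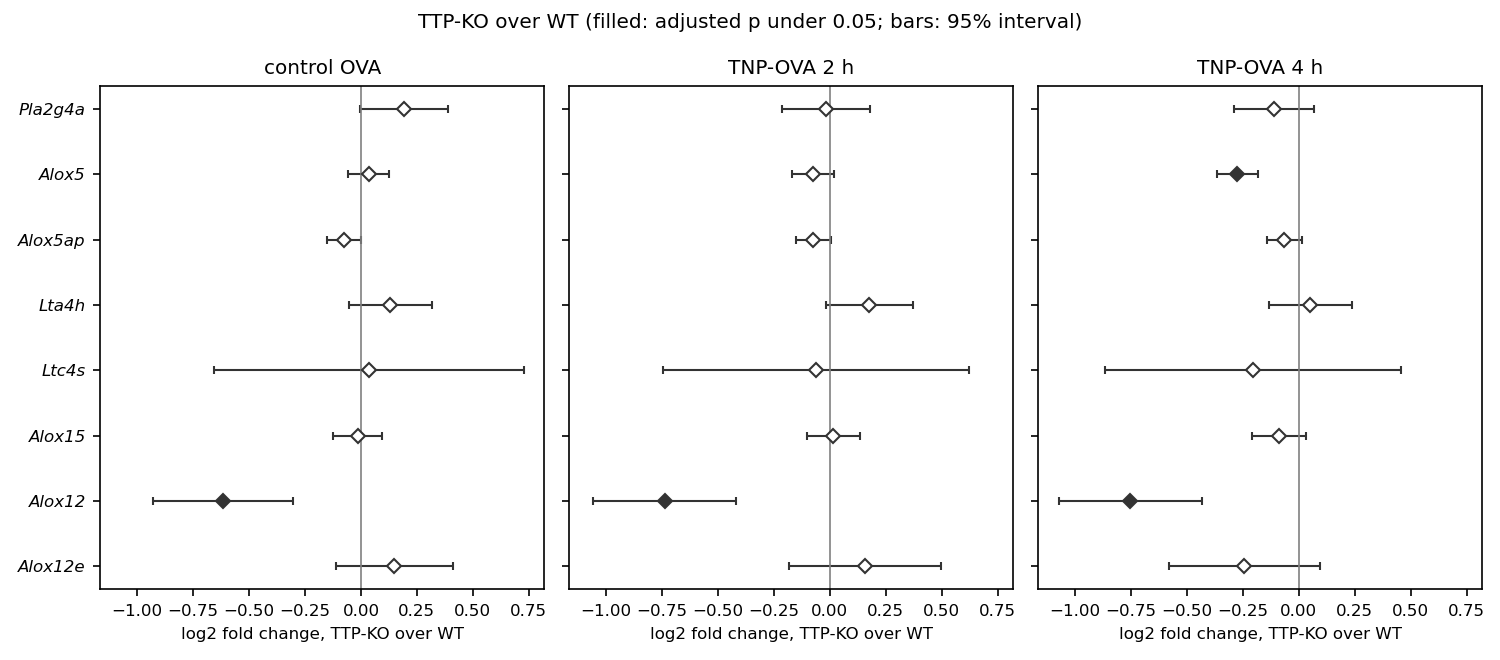
Log2 fold change of TTP-KO over WT for each member with control OVA, 2 h and 4 h of TNP-OVA, with 95% intervals; filled symbols have an adjusted p under 0.05. Alox12 is at -0.62, -0.74 and -0.75, Alox5 leaves 0 only at 4 h (-0.27), and Ltc4s has the widest intervals.

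**Figure D4:**
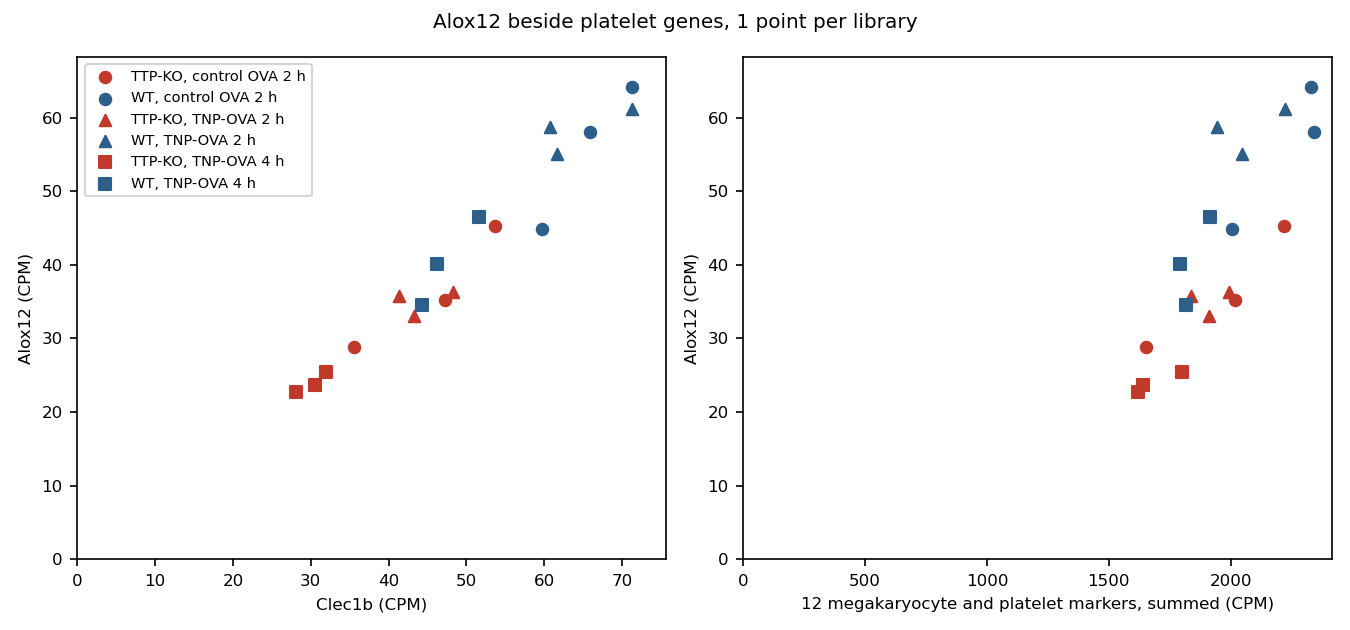
Alox12 against Clec1b (left) and against the summed CPM of 12 megakaryocyte and platelet markers (right), 1 point per library, coloured by genotype and shaped by condition. Alox12 and Clec1b rise together from the TTP-KO libraries at 4 h to the WT control and 2 h libraries. The summed levels overlap between genotypes in each condition, and their largest parts are Itga2b (527 to 636 CPM) and Pf4 (361 to 610 CPM). The part of platelet genes in the Alox12 results was not tested. Clec1b was picked as the gene closest to Alox12 in these libraries, so their rise together follows from that choice.

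Alox5 was lower in TTP-KO than in WT cells after 4 h of antigen. It averaged 444 ± 26.2 CPM in TTP-KO and 434 ± 13.8 CPM in WT control libraries, 444 ± 9.54 and 468 ± 15 CPM at 2 h, and 465 ± 11.0 and 563 ± 24.5 CPM at 4 h (SD, n = 3 each). The log2 fold change at 4 h was -0.27 ± 0.04 (adjusted p = 0.000142, edgeR), and every TTP-KO library lay below every WT library. With control OVA it was 0.03 ± 0.04 and at 2 h -0.08 ± 0.04 (adjusted p = 0.828 and 0.469, edgeR). The difference itself was tested: the TTP-KO minus WT difference of the 4 h response was -0.31 ± 0.06 (95% interval -0.44 to -0.18, adjusted p = 0.0135, edgeR), and 0 of the 8 members were called higher and 1, Alox5, lower, against 0.277% and 0.412% of all genes (0.689% in all). The call was lost without TTP-KO control replicate 2 (-0.29, adjusted p = 0.0537) or WT 4 h replicate 3 (-0.27, adjusted p = 0.0622). For the 2 h response 0 of 8 members were called in either direction, against 0.0355% of all genes higher and 0.0142% lower (0.0497% in all). For the change from 2 h to 4 h 0 of 8 were called, against 0.0924% higher and 0.220% lower (0.313% in all), and Alox5 had -0.20 ± 0.06 (adjusted p = 0.249, edgeR). At an unadjusted p under 0.05 edgeR gave 0 members for the 2 h response and 1, Alox5, for the later change, and DESeq2 called 0 of 8 in both. At 4 h, 11 of 17 neutrophil markers and 7 of 13 monocyte and macrophage markers were higher in TTP-KO cells, 1 of each was lower, and 6 of 7 B cell markers were lower. Of all genes, 1.83% were higher and 3.40% lower. Of 12 basophil markers 1 was higher and 5 were lower, and of 7 mast cell markers 0 were higher and 2 were lower. The mast cell list summed to 960.4 to 995 CPM in TTP-KO and 1089 to 1132 CPM in WT libraries at 4 h, and the basophil list to 25465 to 26028 and 26009 to 27603 CPM. Cpa3 made up most of the mast cell sum (744 to 1267 CPM over the 18 libraries), while Kit was at 12.4 to 28.7 CPM. Neutrophils, monocytes and B cells are known to express Alox5, as are basophils and mast cells, and the part of these cells in the Alox5 result was not tested.

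The members fell into few patterns over the 18 libraries. Pearson's r of log2 CPM was 0.95 between Alox15 and Alox12e, 0.85 between Alox15 and Lta4h and -0.89 between Alox15 and Pla2g4a, whereas Alox12 and Alox12e had 0.34 and Alox5 and Alox5ap 0.45. These values describe 18 libraries that share the same 6 groups. Among 9757 other well-expressed genes, the closest to Alox15 was Adgre5, an adhesion receptor of leukocytes (r = 0.997), which had 317 ± 7.86, 182 ± 2.38 and 103 ± 7.11 CPM in TTP-KO and 324 ± 6.35, 183 ± 1.52 and 104 ± 1.69 CPM in WT libraries with control OVA, at 2 h and at 4 h. Ccpg1 and Tspan13 followed (r = 0.98 each). The closest to Alox12e were Rom1, Znrf1 and Grina (r = 0.98, 0.98 and 0.97), to Alox12 Clec1b, Irag1 and Nrgn (0.98, 0.97 and 0.95), and to Pla2g4a Alkbh1, Traf5 and Utp4 (0.93 each). The closest to Alox5 was Ccnd3, which encodes cyclin D3 (r = 0.92), followed by Lrp12 and Lama5. Ccnd3 averaged 388, 422 and 464 CPM in TTP-KO and 403, 466 and 600.3 CPM in WT libraries over the same order, highest in WT cells at 4 h. Each of these genes was picked for its likeness to a member, so a shared pattern follows from that choice. Alox5ap was closest to Lpxn, Vopp1 and Eeig1 (0.93, 0.92 and 0.92), Lta4h to Arid4a, Hmgb1 and Rcor3 (0.92, 0.92 and 0.91) and Ltc4s to Hmga1b, Slc25a14 and Hspa2 (0.79, 0.76 and 0.74). The values for Ltc4s are less certain, with 7.37 to 41.1 counts a library. Hmga1b ran from 0 to 19.0 CPM within the WT control libraries.

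Markers of cells known for these enzymes are given beside the antigen results. Of all genes tested, 34.5% at 2 h and 35.0% at 4 h were called over control in TTP-KO cells, and 35.1% and 38.0% in WT cells. Eosinophils of mouse and resident macrophages are known for Alox15, and the 9 listed eosinophil genes summed to 153 to 179 CPM, 179.9 to 238 CPM and 138 to 181 CPM in TTP-KO and to 123 to 170.3 CPM, 168 to 188 CPM and 129 to 164 CPM in WT libraries with control OVA, at 2 h and at 4 h, with Epx, the eosinophil peroxidase, at 0.54 to 2.65 CPM. Within these sums Prg2 alone was at 69.3 to 151 CPM over the 18 libraries. Of the 8 eosinophil genes that passed the filter, 2 rose and 1 fell at 2 h and 2 rose at 4 h in TTP-KO cells, and 1 rose and 1 fell at either time in WT cells. Of 13 monocyte and macrophage markers tested, 3 rose and 0 fell at 2 h and 3 rose and 2 fell at 4 h in TTP-KO cells, and 2 rose and 0 fell at 2 h and 2 rose and 4 fell at 4 h in WT cells. Neutrophil markers, whose cells are also known for Alox5 and Lta4h, fell for 11 of 17 and rose for 2 at 4 h in both genotypes, with list medians of -0.44 in TTP-KO and -0.43 in WT cells on the log2 scale. Of the 12 basophil markers, 5 rose and 7 fell at 4 h in both genotypes. The mast cell list summed to 960.4 to 995 CPM at 4 h and 1388 to 1399.8 CPM with control OVA in TTP-KO libraries, and to 1089 to 1132 CPM at 4 h and 1506 to 1540.1 CPM with control OVA in WT libraries. These sums were mostly Cpa3, at 744 to 1267 CPM over the 18 libraries. The part of these cells in the antigen results was not tested. Alox12e is known from epidermis. Of 7 epidermal and epithelial markers, 6 were in the table and only Epcam, an epithelial adhesion protein, passed the filter. The epidermal keratins Krt5 and Krt14 had no counts in any library. The list summed to 1.2 to 3.5 CPM with control OVA, 6.11 to 9.8 CPM at 2 h and 4.83 to 6.47 CPM at 4 h in TTP-KO libraries, and to 1.75 to 2.54, 8.08 to 9.4 and 4.48 to 7.24 CPM in WT libraries. Its part in the Alox12e result was not tested.

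The other genes of the pathway were read from 7 lists. For the counts below, 34.5% of all genes were called at 2 h and 35.0% at 4 h over control in TTP-KO cells. In WT cells these shares were 35.1% and 38.0%. By genotype they were 1.65% with control OVA, 2.79% at 2 h and 5.22% at 4 h. List counts near these shares are not read as results of the lists. Among other phospholipases A2, 12 of 25 listed genes were tested. Pla2g7, the secreted enzyme that degrades platelet-activating factor, was the 1 gene called by genotype in each condition and was higher in TTP-KO cells, with 207 ± 4.16 CPM in TTP-KO and 165 ± 9.04 CPM in WT control libraries, 201 ± 2.66 and 158 ± 22.8 CPM at 2 h, and 185 ± 5.93 and 141 ± 8.11 CPM at 4 h. Its log2 fold changes were 0.33 ± 0.07, 0.35 ± 0.07 and 0.39 ± 0.07 (adjusted p = 0.00818, 0.00393 and 0.000445, edgeR), the first of which was lost without WT control replicate 3 (adjusted p = 0.0582) and the 2 h call in the fit on the compared groups alone (adjusted p = 0.0614). With antigen, 3 of the 12 rose and 2 fell at both times in TTP-KO cells, and 4 rose and 2 fell at 2 h and 3 rose and 4 fell at 4 h in WT cells. Pafah2, an intracellular enzyme of the same substrate, fell at 4 h by 1.06 ± 0.09 in TTP-KO and by 0.97 ± 0.09 in WT cells on the log2 scale (adjusted p = 3.05e-10 and 1.17e-09, edgeR).

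The 1 other lipoxygenase tested of 3 listed was Alox8, the mouse 8-lipoxygenase. It had 48.1 ± 3.23, 29.5 ± 2.52 and 37.2 ± 1.89 CPM in TTP-KO and 50.8 ± 1.85, 33.2 ± 1.70 and 48.3 ± 2.67 CPM in WT libraries with control OVA, at 2 h and at 4 h. The 2 h log2 fold change was -0.70 ± 0.09 in TTP-KO and -0.61 ± 0.08 in WT cells (adjusted p = 1.11e-07 and 9.22e-07, edgeR). At 4 h the libraries of the genotypes were apart, at -0.37 ± 0.08 for TTP-KO over WT (adjusted p = 0.00366, edgeR), while the difference of the 4 h responses was not called (-0.29 ± 0.11, adjusted p = 0.324).

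Genes that export or break down leukotrienes had 15 of 23 tested. Abcc1, the pump that carries leukotriene C4 out of the cell, rose at 4 h: it had 109.5 ± 5.54 CPM at 4 h and 64.2 ± 3.10 CPM with control OVA in TTP-KO libraries, and 99.4 ± 3.95 CPM at 4 h and 66.5 ± 3.01 CPM with control OVA in WT libraries. The log2 fold change was 0.77 ± 0.06 in TTP-KO and 0.58 ± 0.06 in WT cells (adjusted p = 5.50e-11 and 1.37e-08, edgeR). Cyp4f18, which in mouse inactivates leukotriene B4, was lower in TTP-KO than in WT cells at 2 h (697 ± 20.6 and 805 ± 11.5 CPM, log2 -0.21 ± 0.04, adjusted p = 0.00323) and 4 h (407 ± 6.40 and 467 ± 6.47 CPM, log2 -0.20 ± 0.04, adjusted p = 0.00253, edgeR). Mgst1 was higher in TTP-KO cells at 4 h (88.1 ± 4.49 and 62.8 ± 4.75 CPM, adjusted p = 0.000125, edgeR). With control OVA the 2 genes called, both lower in TTP-KO cells, were the epoxide hydrolase Ephx1 (-0.78 ± 0.18, adjusted p = 0.0206) and the dipeptidase Dpep2 (-0.29 ± 0.07, adjusted p = 0.0326, edgeR). Ephx1 was not called without WT control replicate 3 or TTP-KO control replicate 2 or 3 (adjusted p = 0.0862 to 0.135), nor Dpep2 without any of 5 libraries (0.0798 to 0.124). In all, 2 of 15 rose and 4 fell at 4 h in TTP-KO cells and 1 rose and 6 fell in WT cells, and at 2 h 1 rose and 1 fell in TTP-KO and 2 rose and 2 fell in WT cells.

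Of receptors for leukotrienes and lipoxygenase products, 8 of 11 were tested. Ltb4r1, the high-affinity receptor of leukotriene B4, had 37.7 to 47.6, 35.9 to 47.5 and 45.9 to 51.3 CPM in TTP-KO and 47.3 to 51.4, 48.8 to 53.5 and 74.5 to 82.3 CPM in WT libraries with control OVA, at 2 h and at 4 h. The WT 4 h libraries stood above all others. The log2 fold change of TTP-KO over WT after 4 h was -0.65 ± 0.09 (adjusted p = 9.14e-06, edgeR), and that of Ltb4r2, the low-affinity receptor, was -1.64 ± 0.35 (1.09 ± 0.10 and 3.47 ± 0.70 CPM, adjusted p = 0.00386, edgeR). These were the 2 receptors called at 4 h by edgeR, while DESeq2 called 0 higher and 1 lower. At 1.09 CPM in TTP-KO libraries, Ltb4r2 was near the limit of what these libraries could measure, as Ltc4s was. With control OVA and at 2 h edgeR and DESeq2 called 0 of 8, and at an unadjusted p under 0.05 edgeR gave 2 higher and 2 lower with control OVA and 0 higher and 2 lower at 2 h. The difference of the 4 h responses was not called for Ltb4r1 (-0.43 ± 0.13, adjusted p = 0.133) or Ltb4r2 (-1.53 ± 0.51, adjusted p = 0.220, edgeR). With antigen, 0 rose and 2 fell at 2 h and 0 rose and 1 fell at 4 h in TTP-KO cells, and 2 rose and 2 fell at 4 h in WT cells. DESeq2 gave 0 higher and 1 lower at 2 h and 0 in either direction at 4 h in TTP-KO cells, and 1 higher and 1 lower at 4 h in WT cells. The calls of Fpr2, a receptor of lipoxin A4 and formyl peptides, were lost in 5 of 25 settings at either time in TTP-KO cells and in 16 at 4 h in WT cells, where those of Ltb4r2 and the formyl peptide receptor Fpr1 were lost in 5 and 4, single omitted libraries among them. In WT cells at 2 h, 0 were called by edgeR or DESeq2, and 0 had an unadjusted p under 0.05.

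**Figure D5:**
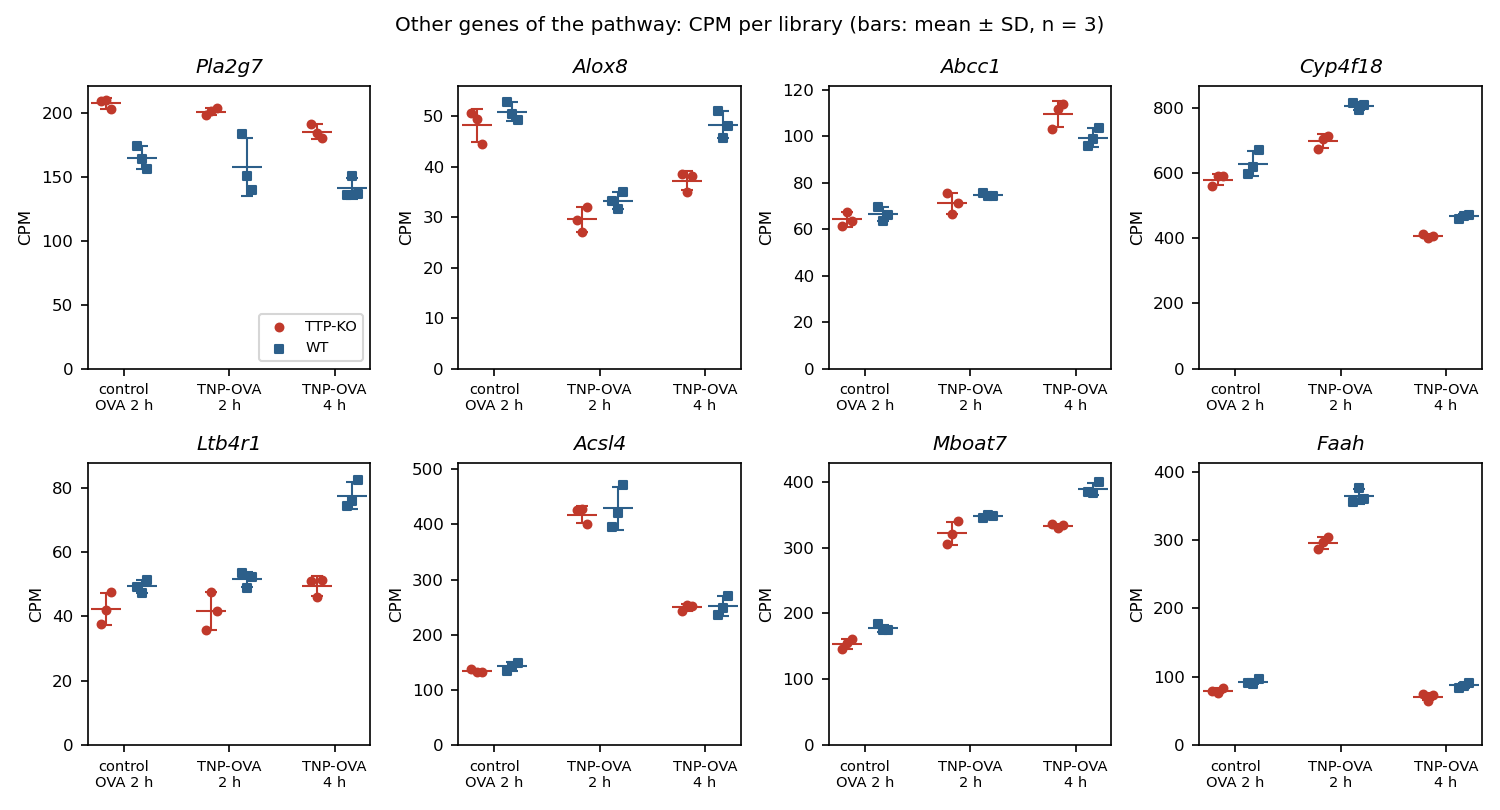
CPM of 8 other genes of the pathway in each library (TTP-KO circles, WT squares), with the mean and SD of 3 libraries, by condition. Pla2g7 is higher and Cyp4f18 at both antigen times lower in TTP-KO, Ltb4r1 is highest in WT at 4 h (74.5 to 82.3 CPM), and Acsl4 and Faah peak at 2 h in both genotypes.

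Of genes that supply or recapture arachidonic acid, 22 of 25 were tested. With antigen, 7 rose and 8 fell at 2 h and 7 rose and 10 fell at 4 h in TTP-KO cells, and 7 rose and 6 fell at 2 h and 7 rose and 9 fell at 4 h in WT cells. Their median log2 fold changes at 4 h were -0.23 in TTP-KO and -0.22 in WT cells, beside 0.01 and -0.01 for all genes. Acsl4, the ligase that activates arachidonic acid for storage, rose at 2 h by 1.64 ± 0.06 in TTP-KO and 1.59 ± 0.06 in WT cells on the log2 scale (adjusted p = 3.66e-19 and 6.46e-19, edgeR). Faah, which hydrolyses the arachidonoyl amide anandamide, rose at 2 h by 1.89 ± 0.06 and 1.97 ± 0.06 (adjusted p = 4.2e-21 and 1.06e-21, edgeR) and was lower in TTP-KO than in WT cells at 2 h (296 ± 8.55 and 364 ± 10.7 CPM) and 4 h (70.8 ± 5.45 and 87.3 ± 3.5 CPM), with adjusted p = 0.000875 and 0.001. Mboat7, which puts arachidonic acid back into phosphatidylinositol, rose at 4 h by 1.11 ± 0.05 in TTP-KO and 1.13 ± 0.05 in WT cells, and Fads1, a desaturase that makes arachidonic acid, fell by 0.92 ± 0.07 and by 1.19 ± 0.07. By genotype, 0 of 22 were higher and 1 was lower in TTP-KO cells with control OVA and at 2 h, and 1 was higher and 4 were lower at 4 h. The control call, of Mboat7, was lost in 4 of 25 settings (adjusted p up to 0.119, edgeR), and the 4 h calls of Fads1 and the acyltransferase Lpcat3 in 5 and 2.

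Of 19 partners, kinases and peroxide-control genes of 5-lipoxygenase, 5 rose and 8 fell at 2 h and 2 rose and 10 fell at 4 h in TTP-KO cells, and 7 rose and 8 fell and 2 rose and 8 fell in WT cells. Anxa1, the annexin that restrains cytosolic phospholipase A2, had 542 ± 11.6 CPM at 4 h and 887 ± 21.2 CPM with control OVA in TTP-KO libraries and 551 ± 2.56 CPM at 4 h and 904 ± 37.5 CPM with control OVA in WT libraries, and fell by 0.71 ± 0.04 on the log2 scale in both (adjusted p = 3.29e-14 in TTP-KO and 2.57e-14 in WT cells, edgeR). By genotype edgeR called 0 of 19 with control OVA (2 higher and 3 lower at an unadjusted p under 0.05, and 1 lower by DESeq2), 1 was lower in TTP-KO cells at 2 h, and 1 was higher and 2 were lower at 4 h. The 2 h call, of the kinase Mapkapk2, was lost in 10 of 25 alternative settings, 7 of them the omission of a library (adjusted p up to 0.230, edgeR), and the 4 h calls of Mapkapk2 and the kinase subunit Camk2g were lost in 16 and 14. Of 9 prostanoid enzymes tested, Ptgs2, the inducible cyclooxygenase that competes for arachidonic acid, rose to 2627 ± 56.1 CPM in TTP-KO and 1929 ± 101 CPM in WT libraries at 2 h, against 224 ± 14.3 and 223 ± 10.6 CPM with control OVA. It was the 1 prostanoid enzyme called by genotype at 2 h, with TTP-KO over WT at 0.45 ± 0.08 (adjusted p = 0.00602, edgeR), and the difference of the 2 h responses was not called by edgeR (0.44 ± 0.11, adjusted p = 0.353), whereas DESeq2 called 1 of the 9 enzymes for it. With antigen, 3 of the 9 rose and 1 fell at 2 h and 4 rose and 2 fell at 4 h in TTP-KO cells, and 2 rose and 0 fell, and 4 rose and 2 fell, in WT cells. In TTP-KO cells the 2 h calls of Hpgds and Ptges3 were lost in 5 and 7 of 25 alternative settings. In WT cells those of Ptges3 at 2 h and Hpgd at 4 h were lost in 3 and 7. Of the 52 other genes that the naming rule picked, the bodies of 28 overlap another annotated gene, 19 of them on the opposite strand, Cyp4f18, Mboat7, Pla2g7 and Anxa1 included.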

How the data were processed

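PolyA RNA of 18 libraries was sequenced, and the expected counts per gene deposited by the authors were made with cutadapt 3.5, STAR 2.7.10a and RSEM 1.3.1 on build GRCm39, per the submitters' processing notes. Here these estimated counts were rounded, genes were filtered with filterByExpr (minimum count 10, minimum total 15), scaled by TMM, and fitted in edgeR 4.0.16 (R 4.3.3) with 1 mean per group over all 18 libraries (12 residual degrees of freedom). Quasi-likelihood tests of 12 contrasts were adjusted by the Benjamini-Hochberg method over 14076 genes. CPM and log2 CPM (prior count 2) use the same scaling, and levels are mean ± SD over 3 libraries. With 3 libraries against 3 an exact permutation test of a single gene cannot go below 0.1, so no such test is given.

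The members and gene lists were chosen with earlier results of these data known. In each pathway list and comparison the 4 called genes with the largest fold change, or the 2 with the lowest p where none was called, could be named, along with the 3 genes closest to each member by Pearson's r among genes whose log2 CPM averaged 2 or more. Clec1b is also a gene of the platelet list. The fits were also run on data simulated from the means and spreads of the main fit, so that run was not independent of it. Alternatives were RLE and upper-quartile scaling, other filters, DESeq2 1.42.0, a replicate block, fits on the compared groups alone, and omission of each library. Within groups, library pairs differed by more than sampling noise (chi-square per degree of freedom 2.96 to 6.77 over 18 pairs), so all were counted. Promoter windows come from RefSeq (GRCm38.p6), and gene bodies from GENCODE M21. The windows of Alox15 and Alox5ap and protein sequences are not used here. The precision of each value is limited by the counting depth and by 3 libraries a group.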

Additional observations from a re-analysis of the deposited data

Results flagged for a closer look

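The 4 h response of Alox5 differed between genotypes by a test of the difference itself. The TTP-KO response minus the WT response was -0.31 on the log2 scale (edgeR's quasi-likelihood test, adjusted p = 0.0135), from 465 ± 11.0 CPM at 4 h and 444 ± 26.2 CPM with control OVA in TTP-KO libraries, and 563 ± 24.5 CPM at 4 h and 434 ± 13.8 CPM with control OVA in WT libraries (SD, n = 3 each). The call was lost without TTP-KO control replicate 2 (adjusted p = 0.0537, edgeR) or WT 4 h replicate 3 (0.0622). All 3 TTP-KO libraries at 4 h lay below all 3 WT libraries.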

How the results depend on the processing

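Of 96 comparisons of single members, 34 were called, and 26 of these kept call and direction under all 25 alternatives, 18 of which leave out 1 library. Of the 62 not called, 3 gained a call under some alternative, and none reversed among those called. All calls of Alox15 and Alox12e, and the 4 h genotype calls of Alox12 and Alox5, were among those kept. With control OVA the genotype call of Alox12, the 1 member called, became 0 under upper-quartile scaling (adjusted p = 0.0540) and in the fit on the compared groups alone (0.337), and the count was 0 to 1 with single libraries left out. Leave-one-out counts of members were 0 to 1 for genotype at 2 h, 3 to 6 for 4 h over 2 h in TTP-KO cells (5 with all libraries, 3 without TTP-KO 2 h replicate 1 or TTP-KO 4 h replicate 2), and 0 to 1 for the 4 h response. The causes were not tested.

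Counts over all genes for antigen over control and for 4 h over 2 h stayed within 1.5 times under every alternative, while other counts moved further. By genotype with control OVA, 232 genes were called, 399 without a filter, 149 with the compared groups alone, and 145 to 245 with single libraries left out, the lowest without TTP-KO control replicate 3. At 2 h 393 genes were called, and 228 to 463 with libraries left out (228 without WT 2 h replicate 3 and 259 without TTP-KO 2 h replicate 1). At 4 h 735 genes were called, 1130 with the compared groups alone, and 466 to 829 with libraries left out (466 without WT 4 h replicate 2 and 484 without TTP-KO 4 h replicate 3). The 2 h responses differed between genotypes for 7 genes, 55 without a filter, 17 by DESeq2, 11 with the compared groups alone, and 4 to 8 with libraries left out (4 without TTP-KO control replicate 2 or TTP-KO 2 h replicate 1 or 3). The 4 h responses differed for 97 genes, 259 without a filter, 159 by DESeq2, and 46 to 133 with libraries left out. That count was 46 to 59 without replicate 2 of the WT or TTP-KO control libraries, of the TTP-KO 2 h libraries or of either genotype at 4 h, or without WT 4 h replicate 3. The change between 2 h and 4 h differed for 44 genes, 134 without a filter, 104 by DESeq2, and 25 to 62 with libraries left out (25 to 29 without TTP-KO 2 h replicate 2 or 3, WT 4 h replicate 3 or TTP-KO 4 h replicate 3).

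Libraries with the same replicate number did not deviate together: 0 of 45 pairs had a correlation over 0.1 (range -0.08 to 0.04). With the replicate block, 257, 399 and 746 genes were called by genotype with control OVA, at 2 h and at 4 h, and all member calls stayed the same apart from Lta4h in TTP-KO cells (adjusted p = 0.0494, edgeR) and Alox5 in WT cells (0.0456) at 2 h, which were gained. Of 112 called comparisons of other named genes, 84 kept call and direction under all alternatives. Depth limits Ltc4s most, at 7.37 to 41.1 counts a library.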
